A study of Mus musculus with 6 samples.

Results

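Interferon-stimulated genes and the genes that carry the interferon signal were followed as a set of 34 named genes, taken from the deposited gene table by their symbols, with no threshold on a measured value. All 34 had a row among the 31838 genes of the table, and all 34 were among the 20428 genes that passed the filter on low counts. Both groups were wild type C57BL/6 mice aged 4 months, and polyadenylated RNA of the hippocampus was sequenced in 6 libraries. The control group (3 libraries) had received corn oil, and the treated group (3 libraries) had received butyl benzyl phthalate (BBP), a phthalate plasticiser, at 50 mg/kg/day. The labels used here give neither the route nor the duration of dosing, and they do not tie libraries to single animals. The p-values therefore reflect library-to-library spread, which may be technical.

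Type I interferons are secreted proteins that cells release when sensors meet foreign or misplaced nucleic acid. They bind a receptor of 2 chains, IFNAR1 and IFNAR2, whose kinases activate STAT2, which works with IRF9 in a factor that binds the interferon-stimulated response element in the promoters of its target genes. The targets include sensors, transcription factors that amplify the response, antiviral effectors, and the protease USP18, which dampens the receptor. In brain tissue at rest a low level of signalling is maintained, and microglia, astrocytes and endothelial cells are all able to respond.

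Deposited counts summed to between 62477604 and 68422361 per library, and the members took 0.0236% to 0.0284% of them. The hippocampal neuron markers were all detected, but their summed level in FPKM (fragments scaled to transcript length and library size) was 132 in BBP library 1 against 197 to 265 in the other 5 libraries. BBP library 1 was also high in striatum markers (204 FPKM against 48.7 to 94.4), in isocortex markers (131 against 52.3 to 62.4) and in blood leukocyte markers (15.7 against 0.815 to 2.42). Corn oil library 3 was shifted in the same direction but less. It had 197 FPKM of hippocampal neuron markers and 94.4 of striatum markers, against 252 to 265 and 48.7 to 53.6 in the remaining libraries. BBP library 2 had 11.5% of its counts on mitochondrial genes, against 7.11% to 8.57% in the others, and its normalization factor was 0.948 against 1.01 in each other library. FPKM values do not carry that factor, so they place nuclear genes of BBP library 2 slightly low, whereas the fitted fold changes and the log2 CPM (counts scaled to library size) values below do carry it.

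No member differed between the groups in the test over all genes. With edgeR's quasi-likelihood test and Benjamini-Hochberg adjustment, 0 of 34 members passed an adjusted p of 0.05, as did 0% of the 20428 genes tested, and the members' adjusted p ranged from 0.953 to 0.997. DESeq2 also passed 0 members, where it called 0.00943% of 31820 genes, a set without the filter on low counts. The members lay on both sides of 0: 20 of 34 (58.8%) had a log2 fold change below 0, against 47.6% of all tested genes, with a median of -0.05 against 0.01 for all tested genes. Single values ran from -0.68 for Ifit1 to 0.57 for Oas2. At an unadjusted p under 0.05 in edgeR there was 1 lower member, Ifit1 (2.94%, against 1.37% of all genes), and there were 0 higher members (against 1.98%), where 3.35% of all genes passed in either direction. DESeq2 had 2 members at that level, Ifit1 and Ifi27, against 2.61% of the 31820 genes it tested without the filter on low counts. All 34 members had passed that filter, so this share is not over a like set. The limma fits on the FPKM had 1, Ifit1. No share of all genes is given for the limma fits, so their count cannot be set against the background. The BBP values lay wholly above the corn oil values for Oas2 and Stat2 (5.88% of members, against 4.4% of all genes) and wholly below for Ifit1 (2.94%, against 5.25%), shares near those of the whole table.

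For most members the libraries limited a difference to less than 2-fold. Of the 34 members, 26 (76.5%) had a 95% interval that stayed inside 2-fold both up and down, against 69.9% of all tested genes. The 8 members with wider intervals were Ifit1, Oas2, Oas1a, Isg15, Usp18, Ifi27l2a, Zbp1 and Mx1. For these, a difference of 2-fold or more in at least 1 direction lay inside the interval.

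**Figure D1:**
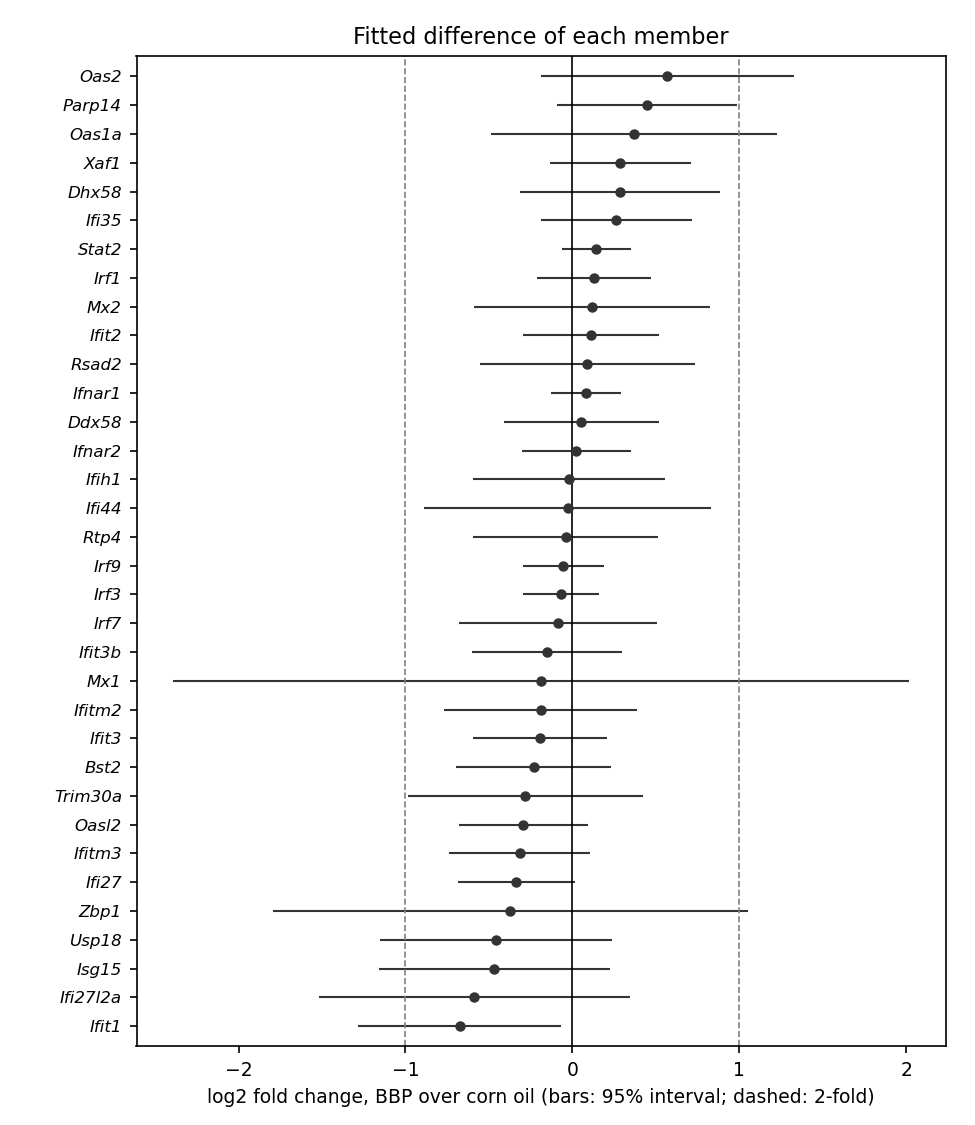
Fitted log2 fold change of each of the 34 members, BBP over corn oil, on the horizontal axis, with genes in order of that value on the vertical axis, points for the estimate, bars for the 95% interval and dashed lines at 2-fold. The interval of Ifit1 is the one that lies wholly on 1 side of 0 (-1.28 to -0.07), and that of Mx1 is the widest.

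The receptor chains were steady. Ifnar1, the chain that holds the kinase TYK2, had 5.21, 5.27 and 5.85 FPKM in corn oil libraries 1 to 3 and 5.41, 5.57 and 6.04 FPKM in BBP libraries 1 to 3. The 2 sets of values overlapped in part, as corn oil library 3 lay above BBP libraries 1 and 2. BBP library 3 had the highest FPKM, and corn oil libraries 1 and 2 had the lowest. The log2 fold change was 0.08 ± 0.09 (SE). Ifnar2, the chain that binds interferon first and holds JAK1, ranged from 3.93 to 4.91 FPKM in corn oil and from 4.02 to 4.92 FPKM in BBP, with 0.02 ± 0.14. The 95% intervals, -0.13 to 0.29 and -0.30 to 0.35, were among the narrower ones of the set. The genes lie 134.659 kb from end to end on chromosome 16 (mm10, 91372783 to 91507441), and an exon of Ifnar2 overlaps the predicted gene Gm21970 on the same strand.

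Among the interferon ligands themselves, rows were used for Ifna12, Ifnz and Ifng. Ifna12 had 3 counts in corn oil library 3 and 0 elsewhere, Ifng had 4 counts in BBP library 2 and 0 elsewhere, and Ifnz had 0 to 4 counts in any library. At about 4 deposited counts to a fragment, an assumption from the low counts, none of these exceeded about 1 fragment, so no level can be given for either group.

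The cytosolic sensors were expressed at a low level. Ddx58 encodes RIG-I, which detects viral RNA ends, and had 0.471, 0.683 and 0.740 FPKM in corn oil libraries 1 to 3 and 0.610, 0.613 and 0.714 in BBP libraries 1 to 3. All 3 BBP values fell inside the corn oil range, and the log2 fold change was 0.05 ± 0.20 (SE). Ifih1, the gene of the long double-stranded RNA sensor MDA5, ranged from 0.314 to 0.484 FPKM in corn oil and from 0.293 to 0.515 in BBP. Dhx58 encodes LGP2, a regulator of both, and its values of 0.512 and 0.505 FPKM in BBP libraries 1 and 2 exceeded the corn oil range of 0.347 to 0.398, while 0.351 in BBP library 3 lay within it (0.29 ± 0.26). Zbp1, a sensor of Z-form nucleic acid, was near the floor of detection, with 40, 23 and 31 counts in corn oil libraries 1 to 3 and 22, 39 and 8 counts in BBP libraries 1 to 3.

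Stat2, the subunit that joins IRF9, had 4.12, 4.46 and 4.59 FPKM in corn oil libraries 1 to 3 and 4.87, 4.68 and 4.78 in BBP libraries 1 to 3. Every BBP value stood above every corn oil value, and the log2 fold change was 0.14 ± 0.09 (SE), with an unadjusted p of 0.147 and an adjusted p of 0.953 in edgeR. Its partner in the factor, Irf9, ranged from 2.91 to 3.27 FPKM in corn oil and from 2.83 to 3.19 in BBP, with a log2 fold change of -0.05 ± 0.11. Exons of Irf9 overlap Rnf31 on the same strand, so its level is uncertain.

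Irf3, the factor that sensors activate before any interferon is made, had 6.18, 6.56 and 6.44 FPKM in corn oil libraries 1 to 3 and 6.63, 5.51 and 5.89 in BBP libraries 1 to 3. BBP library 1 was the highest of the 6 and the other BBP libraries the lowest, with a log2 fold change of -0.07 ± 0.10 (SE). Irf7, which is itself induced and amplifies the response, ranged from 1.19 to 1.62 FPKM in corn oil and stood at 1.36, 0.814 and 1.78 in BBP libraries 1 to 3. The lowest and the highest value of Irf7 were thus both in treated libraries, and the difference of -0.08 ± 0.26 changed to 0.14 without BBP library 2. Irf1, which responds to interferon gamma as well, ranged from 1.42 to 1.7 FPKM in corn oil and from 1.56 to 1.89 in BBP (0.13 ± 0.15).

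**Figure D2:**
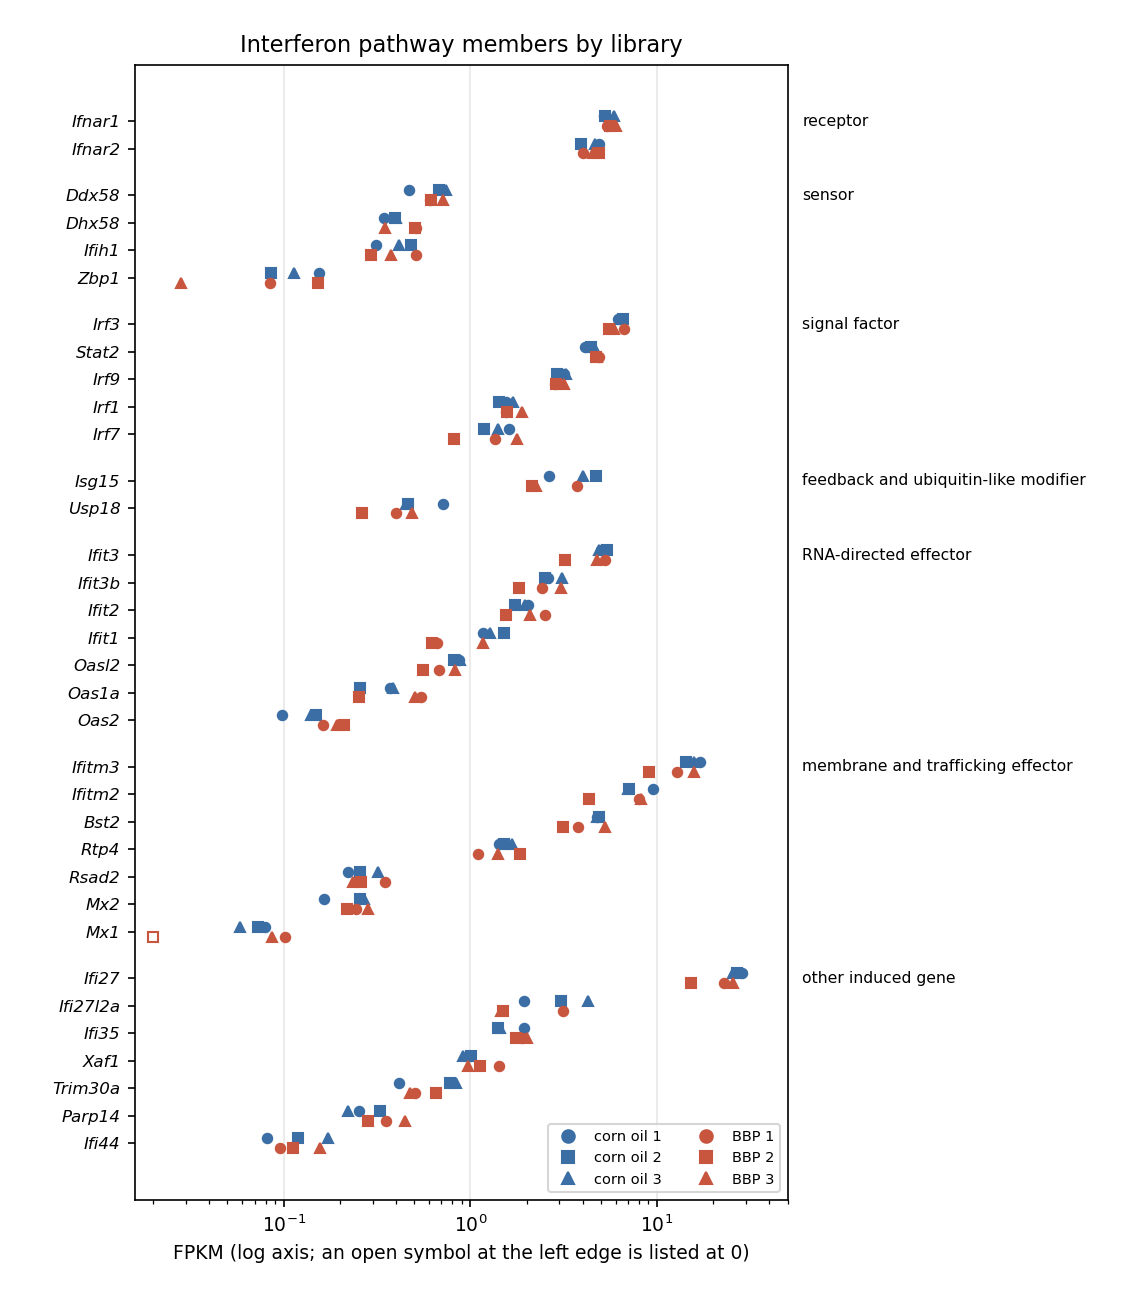
FPKM of each member (log axis) in every library, grouped by role, with blue symbols for the corn oil libraries and red for the BBP libraries and a shape for each replicate number. The receptor genes form tight clusters, and BBP library 2 (red square) lies to the left for several genes of other roles, as for Ifi27 at 15.3 FPKM against 22.8 to 28.4 in the others and for Irf7 at 0.814 against 1.19 to 1.78.

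The modifier pair was lower on average in BBP, within the spread. Isg15 encodes a ubiquitin-like protein that is attached to other proteins, and had 2.65, 4.74 and 4.03 FPKM in corn oil libraries 1 to 3 and 3.74, 2.13 and 2.26 in BBP libraries 1 to 3. Corn oil library 1 lay below BBP library 1, so the groups overlapped, and the log2 fold change was -0.47 ± 0.30 (SE, unadjusted p = 0.160, edgeR adjusted p = 0.953). Usp18 encodes the protease that removes ISG15 and restrains IFNAR2. It had 0.710, 0.463 and 0.450 FPKM in corn oil libraries 1 to 3 and 0.402, 0.263 and 0.489 in BBP libraries 1 to 3, with -0.46 ± 0.30. BBP library 2 held the lowest FPKM of both genes. On log2 CPM relative to the corn oil mean, Isg15 was lowest in BBP library 3 (-0.72, against -0.67 in BBP library 2). The log2 fold change of Isg15 was -0.75 without BBP library 1 (unadjusted p = 0.0336 in edgeR) and -0.28 without corn oil library 2 (unadjusted p = 0.439). That of Usp18 was -0.28 without BBP library 2 and -0.22 without corn oil library 1.

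Ifit1 (ENSMUSG00000034459, chromosome 19, 34640871 to 34650009 of mm10, plus strand) was the member with the smallest unadjusted p. The IFIT proteins bind viral RNA that lacks host cap marks, and the genes Ifit2, Ifit3, Ifit3b and Ifit1 follow each other within 99.316 kb of chromosome 19 (mm10, 34550694 to 34650009). Ifit1 had 1.17, 1.52 and 1.27 FPKM in corn oil libraries 1 to 3 and 0.661, 0.627 and 1.16 in BBP libraries 1 to 3. The groups did not overlap, although BBP library 3 lay just under corn oil library 1. The mean was 1.32 ± 0.1796 FPKM in corn oil and 0.817 ± 0.3004 in BBP (SD, n = 3 each), with a log2 fold change of -0.68 ± 0.26 (SE), an unadjusted p of 0.0332 and an adjusted p of 0.953 in edgeR. Leaving out 1 library at a time gave values from -0.99 to -0.54. The unadjusted p of Ifit1 in edgeR stayed under 0.05 without corn oil library 1 and without BBP library 3. In the fits without any other single library it did not, and it was 0.0991 without BBP library 2.

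The groups overlapped for each of its neighbours on the chromosome, with BBP library 2 lowest on FPKM as for Ifit1. On log2 CPM relative to the corn oil mean, Ifit1 stood at -0.98 in BBP library 1 and -0.96 in BBP library 2. Ifit2 had 2.04, 1.73 and 1.97 FPKM in corn oil libraries 1 to 3 and 2.51, 1.55 and 2.08 in BBP libraries 1 to 3, so that the treated libraries held both extremes (0.11 ± 0.18, SE). Ifit3 had 5.00, 5.37 and 4.87 FPKM in corn oil and 5.24, 3.20 and 4.75 in BBP, where BBP library 2 was low and the other BBP libraries lay in or close to the corn oil range (-0.19 ± 0.17, and -0.04 without BBP library 2). Ifit3b ranged from 2.51 to 3.08 FPKM in corn oil and from 1.83 to 3.06 in BBP, again lowest in BBP library 2. Transcripts of Ifit3 and Ifit3b are 97.8% identical over 1700 aligned bases, so fragments may have been divided between them and their single levels are uncertain.

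Promoter windows show what the rule did not use. RefSeq windows of the GRCm38.p6 build, from 250 bases before to 50 bases after a start site, were found for 24 of the 34 members. The letters GAAANNGAA, a core of the interferon-stimulated response element, were searched on both strands and occurred in 14 of these 24 members (58.3%), against 9.76% of the 27025 genes with a window. The gamma-activated sequence TTCNNNGAA, which reads the same on both strands and may overlap the first motif, occurred in 8 of 24 (33.3%), against 9.55% of all genes. The windows below are those of 6 effector and modifier genes with repeated matches upstream of the start site. They are printed in the direction of the gene with matches of GAAANNGAA in capitals, and a match on the other strand appears as its reverse complement. Adjacent matches run together into a longer stretch of capitals.
Ifit1, chr19:34640765-34640828, plus strand: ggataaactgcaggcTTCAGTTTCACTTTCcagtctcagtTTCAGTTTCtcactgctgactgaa
Ifit3, chr19:34583359-34583450, plus strand: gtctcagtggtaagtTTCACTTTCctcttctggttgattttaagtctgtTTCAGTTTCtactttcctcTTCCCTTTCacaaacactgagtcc
Ifit3b, chr19:34607755-34607846, plus strand: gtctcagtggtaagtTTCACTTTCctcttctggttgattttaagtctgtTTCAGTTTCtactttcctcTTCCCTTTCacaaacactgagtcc
Isg15, chr4:156200861-156200911, minus strand: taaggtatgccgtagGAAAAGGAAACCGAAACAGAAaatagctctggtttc
Bst2, chr8:71537573-71537617, minus strand: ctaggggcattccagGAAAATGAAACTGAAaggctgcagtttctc
Oas1a, chr5:120907526-120907560, minus strand: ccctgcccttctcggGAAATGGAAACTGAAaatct

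Ifit3 and Ifit3b carry the same 92 bases here, with 3 matches at the same spacing, and the Ifit1 window holds 3 matches in 64 bases. The Ifit2 windows in the table hold no such match, which says only that these letters are not in those windows. Among the 14 members with a match, 10 had a log2 fold change below 0, with a median of -0.17 and a range from -0.68 to 0.37. Among the 10 members whose window had none, 4 were below 0, with a median of 0.05 and a range from -0.29 to 0.29. In BBP library 2 alone, the median log2 CPM relative to the corn oil mean was -0.40 for the members with a match and 0.05 for those without. For the 10 members that had no window it was 0.12, and 6 of these were below 0 over the groups, with a median of -0.11. Of all tested genes, 47.6% were below 0. Isg15, Bst2, Ifitm2 and Ifitm3 have a match and a longest transcript under 1000 bases. The shortest member whose window had no match was Ifi35, at 1362 bases. The part of transcript length in this split was not tested. These splits were made after the values were seen and are given as a description. Dhx58, Ifi27, Ifi27l2a, Mx1, Mx2, Oas2, Parp14, Rtp4, Usp18 and Zbp1 had no entry.

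None of the oligoadenylate synthetase genes passed the test. Enzymes of this family make the second messenger that activates the RNA-cutting enzyme RNase L, and Oasl2 belongs to the OAS-like branch. Oas2 had 0.0981, 0.150 and 0.140 FPKM in corn oil libraries 1 to 3 and 0.162, 0.210 and 0.193 in BBP libraries 1 to 3. Each BBP value exceeded each corn oil value, with 31 to 48 counts per corn oil library and 51 to 67 per BBP library, and a log2 fold change of 0.57 ± 0.33 (SE), an unadjusted p of 0.123 and an adjusted p of 0.953 in edgeR.

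Oasl2 had 0.866, 0.818 and 0.878 FPKM in corn oil libraries 1 to 3 and 0.682, 0.560 and 0.826 in BBP libraries 1 to 3. Only BBP library 3 reached the corn oil range, and the log2 fold change was -0.29 ± 0.17 (SE, unadjusted p = 0.118). Oas1a ranged from 0.256 to 0.387 FPKM in corn oil and from 0.253 to 0.544 in BBP, with BBP libraries 1 and 3 high and BBP library 2 low (0.37 ± 0.37). The transcript of Oas1a is 97.6% identical to that of Oas1g over 1861 bases, so its own level is uncertain.

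Membrane effectors included the more abundant members. Ifitm3, which blocks the fusion of viruses in endosomes, had 17.1, 14.4 and 15.7 FPKM in corn oil libraries 1 to 3 and 12.8, 9.01 and 15.8 in BBP libraries 1 to 3. BBP libraries 1 and 2 lay below the corn oil range and BBP library 3 inside it, with a log2 fold change of -0.31 ± 0.18 (SE), an unadjusted p of 0.125 and an adjusted p of 0.953 in edgeR. Ifitm2, its relative 55.934 kb from end to end with it on chromosome 7 (140954837 to 141010770), ranged from 7.01 to 9.52 FPKM in corn oil and stood at 8.01, 4.33 and 8.20 in BBP libraries 1 to 3. Without BBP library 2 the log2 fold change of Ifitm2 went from -0.19 to 0.03. That of Ifitm3 was -0.15 without BBP library 2 and -0.49 without BBP library 3. Bst2, the tether that holds budding virions at the cell surface, had 4.75 to 4.90 FPKM in corn oil and 3.76, 3.14 and 5.25 in BBP libraries 1 to 3, so the treated group again held both the lowest and the highest value (-0.23 ± 0.20, with -0.11 without BBP library 2 and -0.43 without BBP library 3).

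The other genes of this role were at 2 FPKM or below. Rtp4, a receptor chaperone that is induced by interferon, ranged from 1.43 to 1.67 FPKM in corn oil and from 1.10 to 1.85 in BBP. Rsad2, which encodes the radical-SAM enzyme viperin, ranged from 0.221 to 0.318 and from 0.234 to 0.348 FPKM. The dynamin-like GTPase gene Mx2 ranged from 0.164 to 0.270 and from 0.218 to 0.284 FPKM. Mx1 had 18 to 22 counts in corn oil and 28, 0 and 25 counts in BBP libraries 1 to 3, a level of few fragments in any library, and its value in BBP library 2 is listed at 0. Mx1 and Mx2 are 94.8% identical over 920 bases.

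Ifi27 (ENSMUSG00000064215, chromosome 12, 103434211 to 103440239 of mm10, plus strand) was the most abundant member. It encodes a small mitochondrial membrane protein and had 28.4, 26.9 and 25.5 FPKM in corn oil libraries 1 to 3 and 22.8, 15.3 and 25.5 in BBP libraries 1 to 3. BBP library 3 matched the lowest corn oil library, and BBP libraries 1 and 2 lay below it. The mean was 26.95 ± 1.49 FPKM in corn oil and 21.2 ± 5.28 in BBP (SD, n = 3 each), and the log2 fold change was -0.33 ± 0.15 (SE), with an unadjusted p of 0.0578 and an adjusted p of 0.953 in edgeR. Without BBP library 2 it was -0.18, and without BBP library 3 it was -0.46. Ifi27l2a, which lies next to it on chromosome 12 in the opposite direction, ranged from 1.94 to 4.25 FPKM in corn oil and stood at 3.14, 1.504 and 1.46 in BBP libraries 1 to 3 (-0.59 ± 0.41). The value of Ifi27l2a was -1.02 without BBP library 1 (unadjusted p = 0.0297 in edgeR) and -0.29 without corn oil library 3 (unadjusted p = 0.531).

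On the higher side, Parp14, an ADP-ribosyltransferase gene, had 0.254, 0.329 and 0.221 FPKM in corn oil libraries 1 to 3 and 0.355, 0.283 and 0.449 in BBP libraries 1 to 3. BBP library 2 lay within the corn oil range, and the log2 fold change was 0.45 ± 0.23 (SE), with an unadjusted p of 0.0906. Xaf1, which promotes cell death by opposing XIAP, had 0.999, 1.01 and 0.916 FPKM in corn oil and 1.42, 1.13 and 0.972 in BBP, highest in BBP library 1 (0.29 ± 0.18, unadjusted p = 0.156). Without that library Xaf1 stood at 0.15 (unadjusted p = 0.438). Ifi35, which forms a complex with NMI, had 1.94, 1.40 and 1.45 FPKM in corn oil and 1.89, 1.75 and 2.02 in BBP (0.26 ± 0.20, unadjusted p = 0.215). For Ifi35, corn oil library 1 fell among the treated values.

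The last members of the set spread widely in both groups. Trim30a, a restraint on Toll-like receptor signalling, ranged from 0.417 to 0.840 FPKM in corn oil and from 0.473 to 0.655 in BBP, all BBP values falling inside the corn oil range. Ifi44 ranged from 0.0816 to 0.173 FPKM in corn oil and from 0.0951 to 0.156 in BBP, likewise inside it.

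BBP library 2 was the library in which members were most often lowest, which was true of genes in general. On FPKM it held the lowest value for 16 of 34 members (47.1%), against 36.2% of all tested genes. On normalized log2 CPM it held the lowest value for 11 members (32.4%), against 26.6% of all tested genes, a share near the background. Those 11 were Irf7, Usp18, Ifit2, Ifit3, Ifit3b, Oasl2, Bst2, Ifitm2, Ifitm3, Mx1 and Ifi27. The summed level of all members was 107 to 111 FPKM in the corn oil libraries, and 101, 77.7 and 107 FPKM in BBP libraries 1 to 3. The receptors summed to 10.49 FPKM in BBP library 2, within the corn oil range of 9.20 to 10.52, whereas the membrane effectors summed to 18.8 FPKM against 28.4 to 33.2 in corn oil. Microglia markers summed to 170 FPKM in BBP library 2, inside the corn oil range of 167 to 185, and endothelial and mural markers to 90.02 FPKM, against 92.4 to 101 in corn oil. These sums do not carry the normalization factor. On normalized log2 CPM relative to the corn oil mean, the median marker in BBP library 2 stood at 0.11 for microglia and 0.17 for endothelial and mural cells. Tissue RNA cannot tell fewer cells of a type from less RNA per cell.

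**Figure D3:**
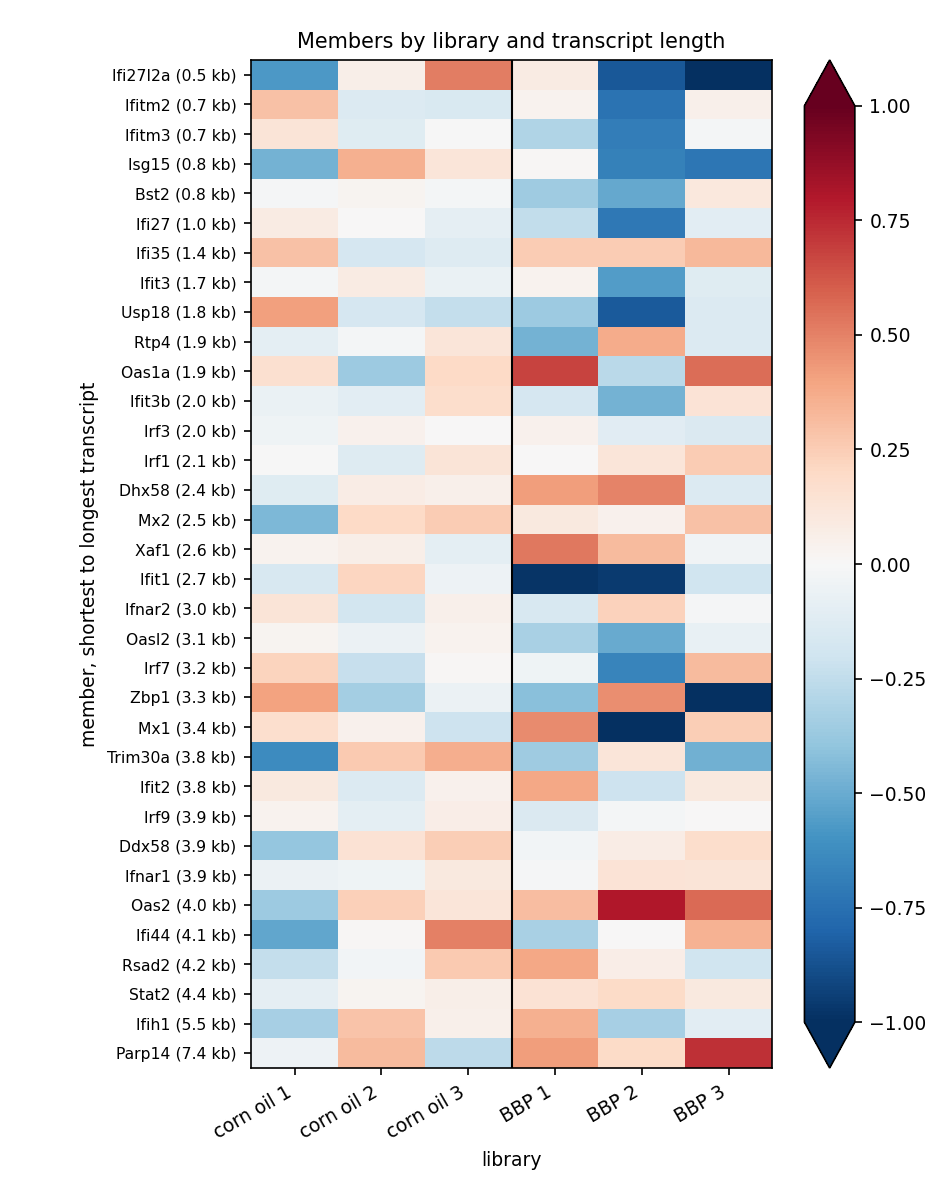
Normalized log2 CPM of each member minus its corn oil mean, as colour, for the 6 libraries in columns and the 34 members in rows from the shortest to the longest transcript. The column of BBP library 2 is blue for all 6 members under 1000 bases, with values from -0.85 to -0.51, and mixed further down.

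The members that were low in BBP library 2 included the short transcripts of the set. Ifi27l2a, Ifitm2, Ifitm3, Isg15, Bst2 and Ifi27 have a longest annotated transcript of under 1000 bases, and in BBP library 2 they stood at -0.85 to -0.51 relative to the corn oil mean on log2 CPM, with a median of -0.70. Across 1359 tested genes of that length with a mean of at least 1 FPKM, the median in the same library was -0.18 and the lower quartile was -0.53. The same genes had medians of 0.00 in BBP library 1 and -0.12 in BBP library 3, where the 6 members had medians of -0.12 and -0.06. All 6 had a log2 fold change below 0 over the groups, with a median of -0.32, against 14 of the 28 longer members, with a median of 0.00. Of the 1359 short genes as a whole, 847 were below 0, with a median of -0.09. With an offset for transcript length fitted in each library, chosen after the data were seen, 20 of 34 members were below 0 with a median of -0.05, and Ifitm3 went from -0.31 to -0.25. Ifit1, with a transcript of 2656 bases, was at -0.67 with the offset and -0.68 without it. The part of transcript length in the low values of BBP library 2 was not tested beyond this offset.

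**Figure D4:**
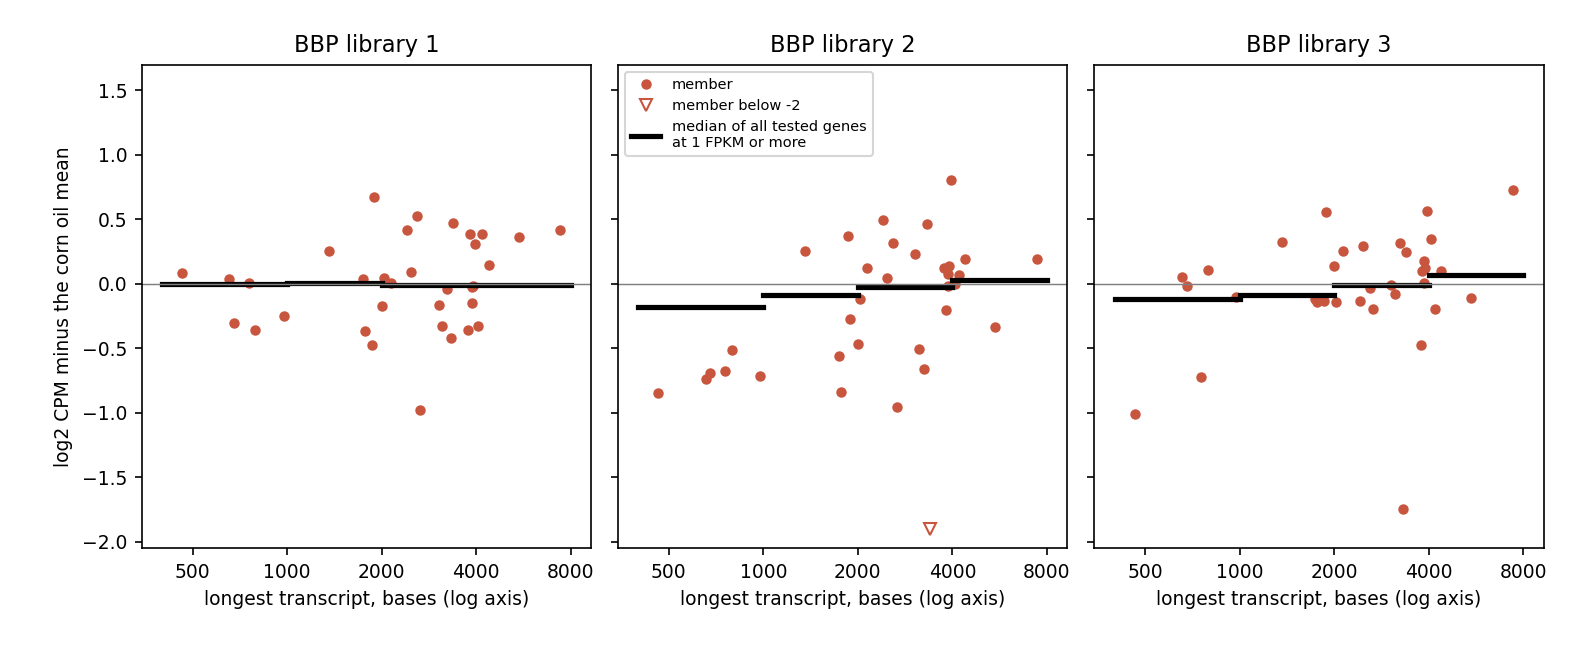
Normalized log2 CPM minus the corn oil mean (vertical axis) against the longest annotated transcript in bases (log axis) for the members (points) in BBP libraries 1, 2 and 3, with black bars at the median of all tested genes of each length class with a mean of at least 1 FPKM. In BBP library 2 the bars run from -0.18 for the shortest class to 0.03 for the longest, and the 6 short members lie below the bar of their class.

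The count of members at a small p depended on which library was present. Without BBP library 3, 6 members (17.6%, against 7.26% of all genes in that fit) had an unadjusted p under 0.05: Ifit1, Oasl2, Bst2, Ifitm3 and Ifi27 lower and Xaf1 higher, with none passing adjustment (smallest adjusted p among members 0.624 in edgeR). Without BBP library 2 or without corn oil library 3 there were 0 such members. No share of all genes is given for these 2 fits, so their counts cannot be set against the background. The median log2 fold change of the set without BBP library 2 was 0.01, with 17 of 34 below 0. Without BBP library 1, the library with the lowest hippocampal neuron markers, there were 2 (Isg15 and Ifi27l2a), against 7% of all genes. The median of the set in that fit was -0.09, with 20 of 34 below 0.

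The wider pathway gave no call either. Of 32 other interferon signalling genes tested, 20 were above 0 and 12 below with a median log2 fold change of 0.08, and 0 passed in edgeR. Myd88, the adaptor of Toll-like receptors, had the smallest p of them, at 2.16, 2.06 and 1.87 FPKM in corn oil libraries 1 to 3 and 2.60, 2.82 and 2.36 in BBP libraries 1 to 3, with 0.38 ± 0.16 (SE, unadjusted p = 0.0475). Irf2, a repressor that competes for the same promoter element, had 2.63 to 2.74 FPKM in corn oil and 2.90 to 3.68 in BBP (0.29 ± 0.13). Ptpn11, the most abundant of the list, encodes the phosphatase SHP2 and ranged from 17.7 to 19.9 and from 14.5 to 20.6 FPKM.

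Of 47 other interferon-stimulated genes tested, 29 were above 0 and 18 below with a median of 0.07, and 0 passed. The smallest p were those of Tor1aip1, a nuclear membrane protein gene with 4.48 to 4.85 FPKM in corn oil and 5.19 to 5.32 in BBP (0.21 ± 0.09, SE, unadjusted p = 0.0494), and Parp12, an ADP-ribosyltransferase gene with 2.03, 2.09 and 2.1 FPKM in corn oil libraries 1 to 3 and 2.48, 2.26 and 2.56 in BBP libraries 1 to 3 (0.25 ± 0.12). Adar, which edits double-stranded RNA and was the most abundant of the list, ranged from 16.0 to 18.5 FPKM in corn oil and from 18.2 to 19.3 in BBP.

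Markers of cells that can respond to interferon gave these values beside the members. Microglia markers were above 0 for 13 of 15 genes with a median of 0.07, and summed to 167 to 185 FPKM in corn oil and 170 to 192 in BBP. Astrocyte markers were above 0 for 10 of 10, with a median of 0.13, and endothelial and mural markers for 13 of 14, with a median of 0.19. None of these lists had a marker at 0 in any library. Blood leukocyte markers were mostly near 0: 5 of 15 were tested. In BBP library 1 the T cell marker Trbc2 stood at 13.6 FPKM, against 0.217 to 0.751 in each other library, while Cd3e, Cd3g and Cd8a were listed at 0 there. Choroid plexus markers were below 0 for 10 of 10, with a median of -0.52. Their summed level was mostly Ttr, which had 81.4, 115 and 366 FPKM in corn oil libraries 1 to 3 and 51.5, 44.5 and 58.5 in BBP libraries 1 to 3, and the sums of the other 9 overlapped between the groups (5.48 to 9.98 FPKM in corn oil and 4.62 to 6.197 in BBP). Of all 20428 tested genes, 10713 were above 0. Myelin markers were above 0 for 10 of 10, with a median of 0.33, but the groups overlapped for each of them. Their sums were 576, 794 and 599 FPKM in corn oil libraries 1 to 3 and 908, 935 and 643 in BBP libraries 1 to 3. The part of these cells in the members' values was not tested.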

How the data were processed

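Hippocampus RNA of 3 corn oil and 3 BBP libraries was compared, grouped by the treatment label. Per the submitters' processing notes, the tools were HISAT2 2.2.1, StringTie 2.1.6, cutadapt 1.9, UMI-tools, edgeR and DESeq2, on mm10; which tool did which step is not stated. Per the file headers, the deposited table holds counts and FPKM per gene and library. The deposited counts are whole numbers, were treated as estimated counts, and about 4 were assumed to stand for 1 fragment, from an excess of the value 4 among low counts. The deposited FPKM, which the authors scaled by transcript length and library size, were used as given. The strand setting of the counting is not given in the sources used here. Exons of 11 members overlap another gene in GENCODE M21 (Ifnar2, Rtp4, Irf9, Ifitm2 and Parp14 on the same strand, and Dhx58, Irf1, Irf3, Irf7, Usp18 and Ifi35 on the opposite one), so their levels are uncertain. So are those of members with near copies (at least 200 aligned bases), which beside those named in the report were Isg15 (95.2% identical to AC151275.1 over 482 bases), Ifitm2 (97.0% to Gm11951 over 432), Ifitm3 (91.6% to Gm6885 over 356), Trim30a (90.1% to Trim30d over 1719), Ifi27l2a (90.7% to Ifi27l2b over 236), Xaf1 (93.3% to Ftx over 209), Ifit1 (86.0% to Ifit1bl1 over 730), Ifnar1 (86.1% to Mri1 over 201) and Rtp4 (to Gm45338, which overlaps it).

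Counts were tested with edgeR 4.0.16 in R 4.3.3 (TMM, filterByExpr, quasi-likelihood F test, group as the only term, Benjamini-Hochberg over 20428 genes, threshold 0.05). Standard errors were taken from the fold change and the F statistic. Values per library relative to corn oil use log2 CPM with a prior count of 2. Alternatives were DESeq2 1.42.0, limma 3.58.1 on log2(FPKM + 1) or log2(FPKM + 0.1) for genes with a mean of at least 0.1 FPKM, median-of-ratios size factors, no filter, counts divided by 4, a replicate block and fits without each library. An offset for transcript length (lowess, span 0.3, lengths from GENCODE M21 for 99.9% of the tested genes) and a fit that left out BBP libraries 1 and 2 together were added after the data were seen. The fit was tested on simulated data. No 2 libraries were copies of each other: at most 25 of 11624 well-expressed genes had equal counts in any pair. The members and gene lists were chosen with earlier results of these data known. Library values are given for the 5 members with the smallest p in each direction and the most abundant member of each role, and others were added after their values were seen. From each further interferon list the 2 genes with the smallest p and the most abundant gene are named.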

Additional observations from a re-analysis of the deposited data

How the results depend on the processing

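In no fit run did a member pass an adjusted p of 0.05. The count of genes called in the whole table was 0 in edgeR, 3 with DESeq2 and 10 without BBP libraries 1 and 2 together, a fit added after the data were seen. That fit holds 1 BBP library, which is assumed to vary like the corn oil libraries, so its values describe that library. When 1 library was left out, the count of genes called ranged from 0 to 3. It was 3 in the absence of BBP library 1 and 1 in the absence of corn oil library 2. The median log2 fold change of the members ranged from -0.0885 to 0.00871 over those fits, and was above 0 without BBP library 2. Replicate numbers were not taken to pair the samples, as the labels state no pairing. Same-numbered libraries correlated at -0.08, 0.08 and -0.10 in their deviations from the group means. With 3 libraries in each group, these values cannot exclude a pairing. With the replicate block 0 genes were called, the median of the members was -0.06, and Ifi44 stood at 0.00487 against -0.03 without the block. Ifnar2 stood at -0.00222 and -0.00242 in limma with a pseudocount of 1 and 0.1. Without BBP libraries 1 and 2 together, the sign turned for Ifnar2 (-0.0223), Dhx58 (-0.149), Irf7 (0.302), Ifit3b (0.126), Bst2 (0.0975), Ifitm2 (0.0282), Rsad2 (-0.226), Mx1 (0.251), Ifi44 (0.286) and Xaf1 (-0.0408). With 1 library left out, both signs occurred for Ifnar2 (-0.0903 to 0.111), Ddx58 (-0.115 to 0.1799), Ifih1 (-0.238 to 0.132), Zbp1 (-1.06 to 0.0579), Irf7 (-0.331 to 0.140), Ifit2 (-0.0485 to 0.247), Ifitm2 (-0.317 to 0.0271), Rsad2 (-0.0762 to 0.240), Mx1 (-0.712 to 0.385), Mx2 (-0.0783 to 0.249), Rtp4 (-0.299 to 0.138) and Ifi44 (-0.254 to 0.274). The cause of these turns was not tested, and none of these members had an unadjusted p under 0.05 with all 6 libraries. Counts divided by 4 left 32 members tested, and the filter on FPKM in limma left 33. For members with fewer than 100 counts in a library, such as Zbp1, Mx1, Oas1a and Oas2, few fragments limit what can be told.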
